A study of Mus musculus with 35 samples.

Results

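The expression of 44 genes of the Wnt pathway was measured by RNA-seq in mouse embryonic stem cells that had been turned toward neuroectoderm, the cell layer that gives rise to the nervous system. The genes were chosen by name: 17 Wnt ligands, 10 Frizzled (Fzd) receptors, 8 secreted antagonists and 9 feedback targets. All 44 were among the 17948 genes of the day 3 table and the 18091 genes of the Dnmt1 experiment, and 43 were among the 17705 genes of the Tet3-CD experiment, which did not list Sfrp4. All cells derive from the male V6.5 line (mixed 129/C57BL/6) and were differentiated by withdrawal of LIF and addition of 1 µM retinoic acid for 72 h. Tet3+/+ cells (WT in the plots) carry the normal gene for Tet3, an enzyme that oxidizes 5-methylcytosine. Tet3m/m cells (Mut) carry 2 substitutions that abolish its catalysis, and Tet3-/- cells (KO) lack an early exon. Day 3 cells comprised 3 Tet3+/+, 3 Tet3m/m and 2 Tet3-/- samples. In the Dnmt1 experiment each genotype received an empty vector or myc-Dnmt1, the maintenance DNA methyltransferase, at the start of differentiation, followed by blasticidin in both arms, with 2 samples per genotype and vector. In the Tet3-CD experiment each genotype received an empty vector or the HA-tagged catalytic domain of Tet3 during differentiation, with 1 sample per genotype and vector and hence no test; the labels give these samples the same day 3, while the methods of the study place their collection later. Mutant and knockout lines are clones made by CRISPR/Cas9. The labels do not say that the samples of the Dnmt1 experiment came from separate clones or cultures, so their p-values measure only the spread between these samples, which may be technical.

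Wnt ligands are secreted lipid-modified proteins that bind Frizzled receptors together with the co-receptors Lrp5 and Lrp6. In the canonical branch this binding blocks the destruction of beta-catenin, which then enters the nucleus and activates genes with TCF/LEF factors. Secreted Frizzled-related proteins (Sfrp1, Sfrp2, Sfrp4, Sfrp5 and Frzb) bind Wnt proteins, and Dkk1 and Dkk2 bind the co-receptors. Many of the activated genes, such as Axin2, Nkd1, Notum, Rnf43 and Znrf3, encode proteins that dampen the pathway again. In the early embryo Wnt signals favour mesoderm and posterior fates, and the early neural plate forms where they are held down.

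The targeted genes were read first. On day 3 Tet3 had 4613, 4576 and 5020.0 in Tet3+/+ cells, 2666, 2277 and 1945 in Tet3m/m cells and 1796 and 2329 in Tet3-/- cells (normalized read counts, that is reads divided by the size factor of the sample). In empty-vector cells of the Dnmt1 experiment Tet3 had 2957 and 3075 in Tet3+/+ cells, 1125 and 964 in Tet3m/m cells and 2520.3 and 2571 in Tet3-/- cells, so that its level in the samples labelled Tet3-/- was 1.18 times lower than in Tet3+/+ cells. A deleted exon is not resolved by these gene-level counts. Dnmt1 rose with myc-Dnmt1 in each genotype, by 0.64 ± 0.07, adjusted p = 5.66e-06 in Tet3+/+ cells, 0.90 ± 0.07, adjusted p = 7.46e-09 in Tet3m/m cells and 1.06 ± 0.07, adjusted p = 1.36e-09 in Tet3-/- cells (log2 difference ± SE). With Tet3-CD, Tet3 went from 4755 to 5441, from 1849.9 to 5232 and from 2069.8 to 2759 in Tet3+/+, Tet3m/m and Tet3-/- cells.

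Cell type markers differed between samples that carry the same cell type label. The summed level of 8 neuroectoderm markers lay between 14046 and 27345 on day 3 and between 14916 and 20866 in the Dnmt1 experiment. In the Tet3-CD experiment it lay between 8592 and 18075. Of 10 markers of extraembryonic-type endoderm the sum reached 105105 at most on day 3, but 193787 to 202101 in empty-vector Tet3+/+ cells and 472799 to 527335 in empty-vector Tet3m/m cells of the Dnmt1 experiment. The 6 pluripotency markers summed to 20453 and 20556 in these Tet3+/+ cells, to 61116 and 62511 in Tet3m/m cells and to 4150 and 4287 in Tet3-/- cells. The 8 fibroblast markers, led by collagens, ran the other way, with 11483 and 11927 in Tet3m/m and 37414 and 37717 in Tet3-/- cells. Bulk RNA cannot tell fewer cells of a type from less RNA per cell, and the part of these shifts in the results below was not tested.

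**Figure D1:**
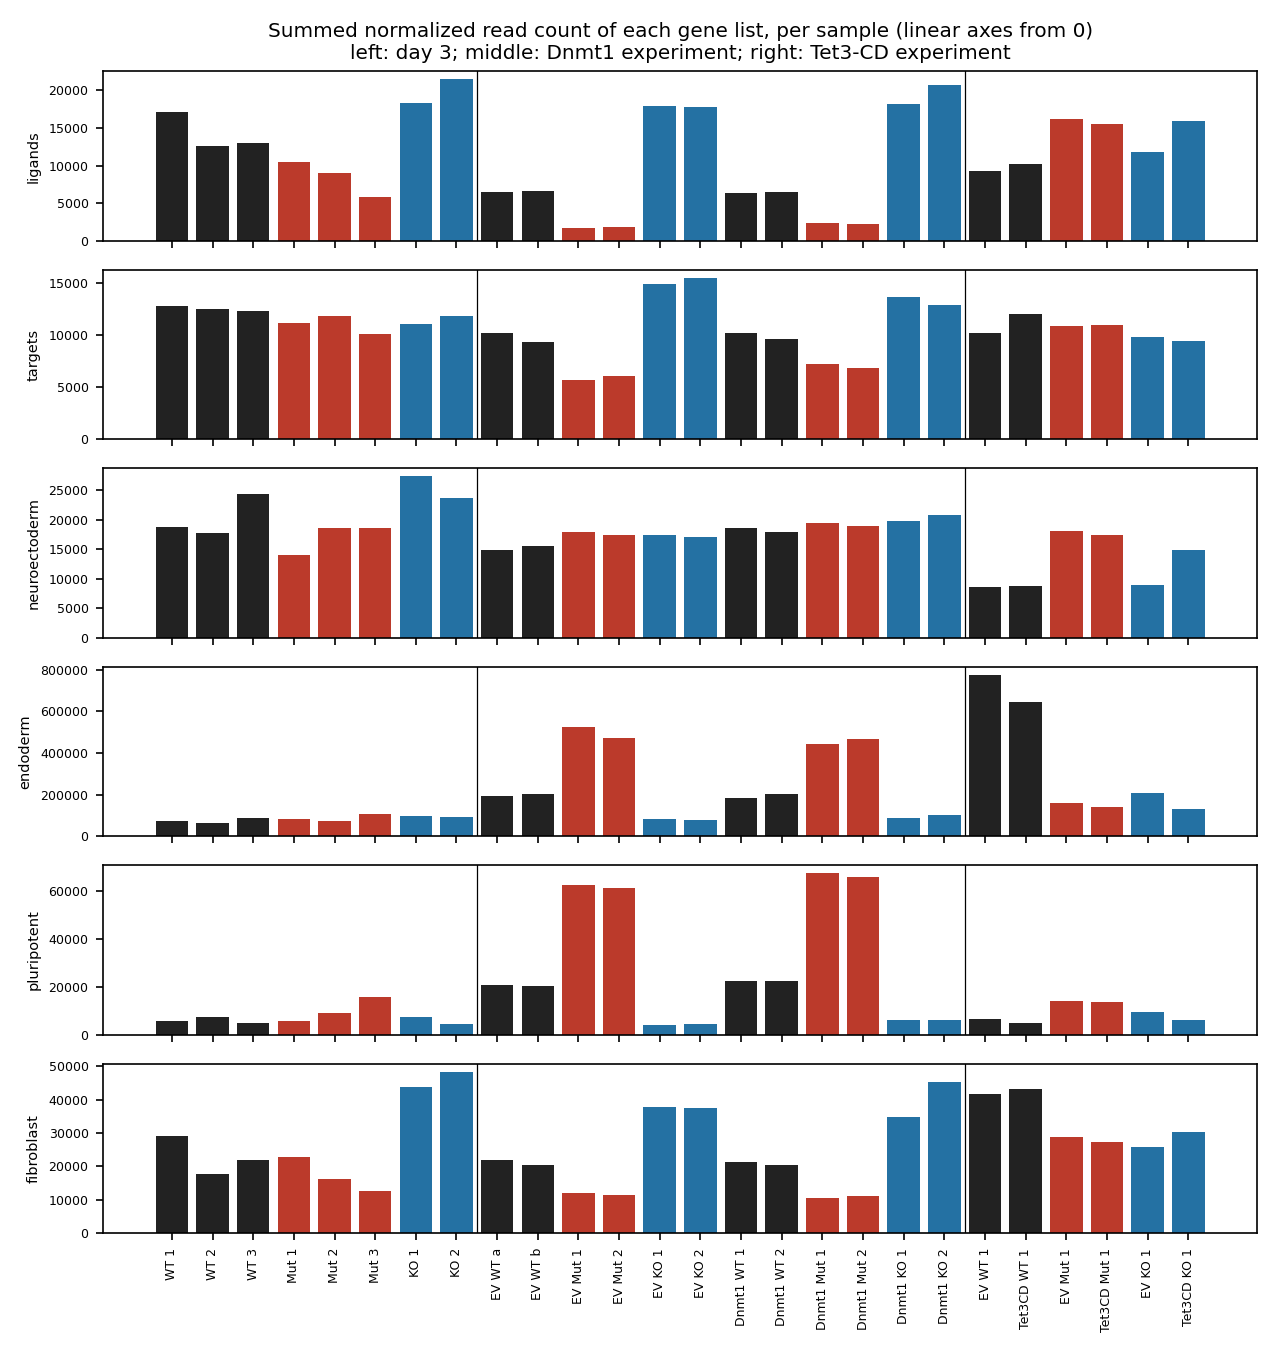
Summed normalized read counts (y axes, linear from 0) of the 17 Wnt ligands, the 9 feedback targets and 4 marker lists in each of the 26 samples (x axis; black WT, red Mut, blue KO; EV, empty vector). In the Dnmt1 experiment the ligand and fibroblast sums were lowest and the endoderm and pluripotency sums highest in the 4 Mut samples.

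Feedback targets are the genes at which beta-catenin and TCF/LEF are best known to act, so the 250 bases before their starts were searched for the TCF/LEF core motif CTTTGAA and its variants with other last letters (CTTTGAT, then CTTTGTA, and also CTTTGTT) on both strands. RefSeq (GRCm38.p6) promoter windows were found for 30 of the 44 genes. Of their 38 windows 15.8% held a motif, against 14.8% of all 32851 windows. The 6 genes with a match were Wnt5b, Wnt11, Fzd7, Dkk1, Lef1 and Sp5. A match describes the letters in this window and no more. Below are, of the windows with a match, both that had 2 and 1 of those that had 1, namely those of Sp5 (chr2:70474673-70474922, plus strand), a zinc finger gene that is a direct target of beta-catenin, of Dkk1 (chr19:30549497-30549746, minus strand), and of Wnt11 (chr7:98834862-98835111, plus strand), an example with 1 match, and beside them that of Axin2 (chr11:108920099-108920348, plus strand), the most used readout of the pathway, which had no match in this window. All run 5′ to 3′ along the gene, and capitals mark the motifs.
Sp5: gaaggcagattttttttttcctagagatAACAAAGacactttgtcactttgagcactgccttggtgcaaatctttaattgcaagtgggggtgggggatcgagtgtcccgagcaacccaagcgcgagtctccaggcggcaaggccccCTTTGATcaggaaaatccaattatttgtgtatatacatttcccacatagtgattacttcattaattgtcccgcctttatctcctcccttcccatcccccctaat
Dkk1: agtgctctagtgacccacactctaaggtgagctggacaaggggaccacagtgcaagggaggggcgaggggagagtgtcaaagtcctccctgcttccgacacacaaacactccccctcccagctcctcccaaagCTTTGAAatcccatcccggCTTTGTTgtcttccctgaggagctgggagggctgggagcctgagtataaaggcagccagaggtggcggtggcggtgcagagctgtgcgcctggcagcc
Wnt11: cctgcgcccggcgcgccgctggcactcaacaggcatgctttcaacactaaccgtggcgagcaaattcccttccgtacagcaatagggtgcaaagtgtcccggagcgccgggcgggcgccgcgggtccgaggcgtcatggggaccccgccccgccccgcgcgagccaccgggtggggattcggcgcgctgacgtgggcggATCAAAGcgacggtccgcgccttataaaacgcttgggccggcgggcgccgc
Axin2: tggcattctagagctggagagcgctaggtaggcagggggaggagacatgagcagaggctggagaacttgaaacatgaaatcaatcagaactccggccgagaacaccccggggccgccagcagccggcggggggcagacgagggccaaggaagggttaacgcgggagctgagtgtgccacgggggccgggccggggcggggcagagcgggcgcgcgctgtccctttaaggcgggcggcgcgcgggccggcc

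Levels are first compared between genes in day 3 Tet3+/+ cells as normalized counts per kilobase of exon (n = 3, ± SD). Wnt6 was the highest ligand with 2284 ± 375, followed by Wnt9a with 565 ± 137. Wnt7b (289 ± 22.0) and Wnt4 (288 ± 83.9) did not differ beyond their spread, and Wnt9b was the lowest at 4.03 ± 0.885. Among receptors Fzd2 (3452 ± 208) and Fzd7 (2133 ± 53.4) stood above the other 8, which ranged from 68.8 for Fzd5 to 526 for Fzd8. Sfrp1 led the antagonists with 1853 ± 382, ahead of Sfrp2 with 704 ± 55.7, while Sfrp4 was at 2.00 ± 0.318. Tcf7 was the highest target with 1153 ± 117, and Axin2 (482 ± 20.1), Nkd1 (430.0 ± 39.6) and Sp5 (428 ± 29.7) followed at levels within the spread of each other for the last 2.

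Day 3 Tet3m/m cells, whose Tet3 lacks catalysis, were compared with Tet3+/+ cells. Their Tet3 level was also lower, as given above, and the mutant lines are clones. The comparison cannot tell these from the loss of catalysis. There 5 ligands, 2 receptors, the antagonist Sfrp1 and the target Nkd1 were lower in Tet3m/m cells, while the ligands Wnt5b and Wnt8a and the antagonists Sfrp5 and Dkk3 were higher. A gene was called when limma's adjusted p was under 0.05 and the fold change above 1.5. This held for 13 of the 44 genes (29.5%), beside 10.2% of all 17915 genes tested. By direction it was 9 lower genes (20.5%, beside 5.19% of all genes) and 4 higher genes (9.09%, beside 5.06%). The median log2 difference of the 44 was -0.18 and that of all genes 0.000811, with medians of -0.53 for ligands, -0.16 for receptors, 0.26 for antagonists and -0.39 for targets. The groups did not overlap for 21 of the 44 genes (47.7%), beside 36.7% of all genes. The count was 7 without the second Tet3m/m sample and 8 without the third Tet3+/+ sample. Beside these differences 5 of 8 neuroectoderm markers were lower in Tet3m/m cells (Pax6, Sox3, Neurog2, Hes5 and Zic1) and 3 of 10 endoderm markers were higher (Cubn, Amn and Lama1). Of 7 mesoderm markers tested Eomes (1.79) and Foxf1 (0.67) were higher, and the sum of that list was 1362 to 1577 in Tet3m/m against 978 to 1043 in Tet3+/+ cells. Among fibroblast markers Thy1 was higher, and no pluripotency marker was called. The part of these cell types in the result was not tested.

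Among ligands Wnt6, which lies next to Wnt10a and is a canonical ligand of surface epithelia, had 5950.2, 4617 and 4454 in Tet3+/+ cells, 2252, 2117 and 1148 in Tet3m/m cells and 5884 and 5395 in Tet3-/- cells. All 3 Tet3m/m samples were thus below every other sample (-1.49 ± 0.22, adjusted p = 0.00181). Wnt1, a ligand of the midbrain and dorsal neural tube, had 393, 503 and 583 in Tet3+/+ cells, 66.6, 162 and 151 in Tet3m/m cells and 187 and 197 in Tet3-/- cells, a fall of 4.11-fold in Tet3m/m cells (-2.04 ± 0.31, adjusted p = 0.00221). Wnt7b had 1509, 1443 and 1299 in Tet3+/+ cells, 492, 728 and 315 in Tet3m/m cells and 1346 and 1331 in Tet3-/- cells (-1.55 ± 0.24, adjusted p = 0.00227). In each of these 3 genes the Tet3m/m samples lay below all Tet3+/+ samples, but for Wnt1 the Tet3-/- samples were low as well. Wnt4, known from kidney and gonad development, had 1609, 1058 and 955 in Tet3+/+ cells, 694, 546 and 385 in Tet3m/m cells and 1121 and 1670.2 in Tet3-/- cells (-1.16 ± 0.25, adjusted p = 0.0126). Wnt2b had 1116, 720.1 and 849 in Tet3+/+ cells, 598, 458 and 227 in Tet3m/m cells and 1317 and 1524 in Tet3-/- cells (-1.15 ± 0.30, adjusted p = 0.0285). For Wnt2b the Tet3-/- samples were the highest of all. The call for Wnt2b was lost without the first or the third Tet3+/+ or the second Tet3m/m sample (log2 differences of -0.98, -1.18 and -1.25), and that for Wnt4 without the first Tet3+/+ sample (-0.93).

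The ligands that rose in Tet3m/m cells were Wnt5b, mostly tied to the noncanonical branch, and Wnt8a, a ligand of the primitive streak. Wnt5b had 311, 319 and 413 in Tet3+/+ cells, 523, 727 and 771 in Tet3m/m cells and 293 and 208 in Tet3-/- cells (0.94 ± 0.20, adjusted p = 0.0124). Wnt8a had 49.2, 36.4 and 32.6 in Tet3+/+ cells, 124, 110.4 and 78.4 in Tet3m/m cells and 62.6 and 63.8 in Tet3-/- cells (1.38 ± 0.30, adjusted p = 0.0136). Both were higher in each Tet3m/m sample than in any other sample of the experiment. Leaving out the second Tet3m/m sample ended both calls (0.88 and 1.32), as did leaving out the first Tet3+/+ sample for Wnt5b (0.87) and the third for Wnt8a (1.26). Wnt10a, the neighbour of Wnt6, had 142, 101 and 113 in Tet3+/+ cells, 108, 55.6 and 38.7 in Tet3m/m cells and 208 and 202 in Tet3-/- cells, and its difference between Tet3m/m and Tet3+/+ cells of -0.92 ± 0.35 missed the threshold (adjusted p = 0.108). The groups overlapped for this gene, since the first Tet3m/m sample fell among the Tet3+/+ values, and without it the difference was -1.32 and called.

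**Figure D2:**
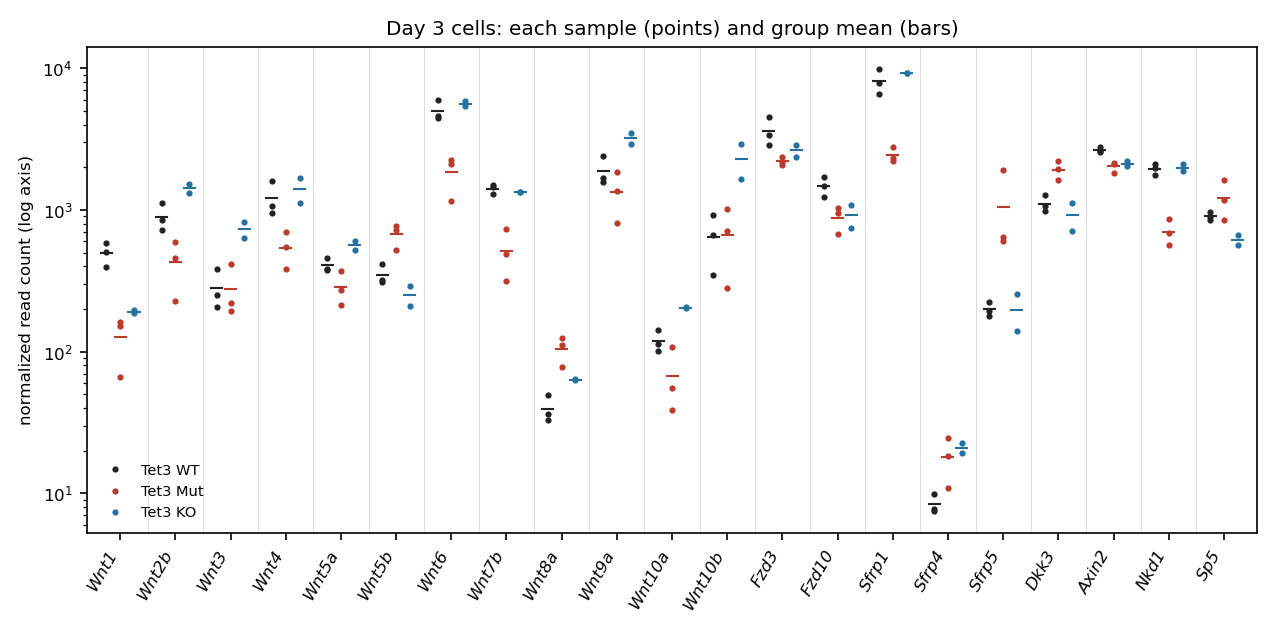
Normalized read counts (log y axis) in each day 3 sample (points) and the mean of each group (short lines) for the 19 genes called in a day 3 comparison and for Axin2 and Sfrp4 (x axis; black WT, n = 3; red Mut, n = 3; blue KO, n = 2). Mut samples lie below WT and KO samples for Wnt6, Wnt7b, Sfrp1 and Nkd1 and above them for Wnt5b, Wnt8a, Sfrp5 and Dkk3.

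Of the receptors Fzd3, which guides axons and acts in planar polarity, had 2872, 3399.7 and 4495 in Tet3+/+ cells, 2383, 2189 and 2092 in Tet3m/m cells and 2895 and 2374 in Tet3-/- cells (-0.67 ± 0.15, adjusted p = 0.0155). Fzd10 had 1231, 1468 and 1718 in Tet3+/+ cells, 677, 949 and 1025 in Tet3m/m cells and 1091 and 747 in Tet3-/- cells (-0.74 ± 0.20, adjusted p = 0.0291). The values of these 2 receptors in Tet3-/- cells lay low too, below those of Tet3+/+ cells for Fzd10 and overlapping them for Fzd3. Without the third Tet3+/+ or the second Tet3m/m sample neither receptor was called (Fzd3 -0.49 and -0.66, Fzd10 -0.63 and -0.81), and for Fzd10 the same held without the second Tet3+/+ (-0.74) or the first Tet3m/m sample (-0.56). Fzd7, the main Frizzled of pluripotent cells, had 9409, 9889.9 and 9696 in Tet3+/+ cells, 12188, 12303 and 12047 in Tet3m/m cells and 9896 and 9685 in Tet3-/- cells, which passed the adjusted p but not the fold (0.33 ± 0.07, adjusted p = 0.0142). The other 7 receptors were not called, with log2 differences between -0.38 (Fzd9) and 0.44 (Fzd5).

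Sfrp1 showed the smallest adjusted p of the 44 genes. It had 9871, 6550.0 and 7877 in Tet3+/+ cells, 2199, 2324 and 2783 in Tet3m/m cells and 9193 and 9244 in Tet3-/- cells, a 3.29-fold lower level in Tet3m/m cells (-1.72 ± 0.14, adjusted p = 9.50e-05), and no Tet3m/m sample came near the Tet3+/+ or Tet3-/- samples. Sfrp5 went the other way, with 195, 178 and 225 in Tet3+/+ cells, 604, 643 and 1900.1 in Tet3m/m cells and 140.0 and 255 in Tet3-/- cells (2.18 ± 0.39, adjusted p = 0.00501). The third Tet3m/m sample set much of the Sfrp5 mean, but the other 2 were also above every sample of the other genotypes. Dkk3, a Dickkopf relative that does not share the co-receptor binding of Dkk1, had 1072, 1274 and 977 in Tet3+/+ cells, 1616, 2218 and 1931 in Tet3m/m cells and 715 and 1113 in Tet3-/- cells (0.79 ± 0.18, adjusted p = 0.0154). Its call was lost without the first or the third Tet3+/+ or the second Tet3m/m sample (0.77, 0.71 and 0.68). Sfrp4 was near the detection floor, with 7.71, 7.47 and 9.88 in Tet3+/+ cells, 18.4, 10.96 and 24.4 in Tet3m/m cells and 19.1 and 22.8 in Tet3-/- cells, and its difference of 0.96 ± 0.50 was not called (adjusted p = 0.237).

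Among feedback targets only Nkd1, an inhibitor that binds Dishevelled, passed the thresholds. Nkd1 had 1993, 1765 and 2122 in Tet3+/+ cells, 563, 858 and 690.4 in Tet3m/m cells and 1871 and 2103 in Tet3-/- cells (-1.49 ± 0.15, adjusted p = 2.14e-04), with all 3 Tet3m/m samples far below the other 5. Axin2, a scaffold of the beta-catenin destruction complex, had 2778, 2571 and 2606 in Tet3+/+ cells, 2122, 2146 and 1826 in Tet3m/m cells and 2035 and 2204 in Tet3-/- cells, a difference of -0.39 ± 0.10 that passed the adjusted p (0.0242) but not the 1.5-fold threshold. The other 7 targets were not called, with log2 differences between -0.75 (Lgr5) and 0.39 (Sp5).

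Sfrp1 and Nkd1 lie on chromosome 8, whose tested genes were shifted as a whole in some samples. Against Tet3+/+ samples the median log2 ratio of chromosome 8 genes was between -0.38 and -0.29 in the 3 Tet3m/m samples, and between -0.31 and 0.18 in the 2 Tet3-/- samples, while the Tet3+/+ samples themselves spread from -0.12 to 0.20. The 100 tested genes around Sfrp1 had medians of -0.20, -0.34 and -0.28 in the Tet3m/m samples, beside -1.86, -1.78 and -1.52 for Sfrp1 itself. For Nkd1 the same medians were -0.37, -0.30 and -0.25 beside -1.79, -1.19 and -1.50. Both genes thus fell further than their neighbours in each Tet3m/m sample. Chromosome 6, which carries Tet3, Wnt2, Wnt5b and Wnt7a, had medians of -0.31 to -0.19 in these samples and of -0.02 to 0.03 in the Tet3+/+ samples. Chromosome 14, which carries Wnt5a and Fzd3, had medians that spread from -0.14 to 0.19 in the Tet3+/+ samples. Its medians were -0.12 to -0.06 in the Tet3m/m and -0.12 to -0.11 in the Tet3-/- samples. The part of this spread in the calls of Fzd3 and Wnt5a was not tested.

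The Tet3 knockout was compared with the normal gene and with the catalytic mutation in the same day 3 experiment. No gene of the 44 was called between Tet3-/- and Tet3+/+ cells by limma, beside 0.642% of all genes. At an unadjusted p under 0.05 the count was 15 (34.1%, beside 20.1% of all genes). By adjusted p and fold edgeR called 0, beside 0.48% of all genes, and DESeq2 called 8, beside 5.12%. Of these 8, 3 were higher (6.82%, beside 3.45%) and 5 lower (11.4%, beside 1.67%) in Tet3-/- cells. A limma fit on these 2 genotypes alone called 7. The largest falls in the main fit were those of Wnt1 (-1.34), Notum (-1.04) and Fzd9 (-0.99), none of them called. The smallest adjusted p belonged to Wnt11, a noncanonical ligand, with 1069.8, 510.0 and 661 in Tet3+/+ cells, 1432, 1002 and 840.1 in Tet3m/m cells and 1445 and 2245 in Tet3-/- cells (1.34 ± 0.31, adjusted p = 0.0656). Wnt3, which is needed for the primitive streak, had 385, 252 and 208 in Tet3+/+ cells, 414, 195 and 219 in Tet3m/m cells and 634 and 824 in Tet3-/- cells (1.41 ± 0.34, adjusted p = 0.0672). Both genes were higher in the 2 Tet3-/- samples than in any Tet3+/+ sample, as was Wnt10b with 921, 349 and 669 in Tet3+/+ cells, 1008, 712 and 281 in Tet3m/m cells and 1654 and 2924 in Tet3-/- cells (1.87 ± 0.51, adjusted p = 0.0854). Wnt10a was 0.80 ± 0.39 (adjusted p = 0.28), and Axin2 -0.32 ± 0.11 (adjusted p = 0.138), the latter with both Tet3-/- samples below all Tet3+/+ samples. Tet3-/- and Tet3+/+ samples did not overlap for 22 of the 44 genes (50%), beside 41.2% of all genes. The medians over the 44 genes and over ligands were 0.02 and 0.47, against -0.01 for all genes.

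Tet3-/- and Tet3m/m cells differed from each other in 15 of the 44 genes (34.1%, beside 9.73% of all genes), 11 higher (25%, beside 5.41%) and 4 lower (9.09%, beside 4.33%) in Tet3-/- cells. The 9 ligands higher in Tet3-/- cells were Wnt2b (1.84 ± 0.34, adjusted p = 0.00673), Wnt3 (1.47 ± 0.34, adjusted p = 0.0191), Wnt4 (1.38 ± 0.28, adjusted p = 0.011), Wnt5a (1.01 ± 0.23, adjusted p = 0.0178), Wnt6 (1.68 ± 0.25, adjusted p = 0.00246), Wnt7b (1.47 ± 0.27, adjusted p = 0.00662), Wnt9a (1.34 ± 0.29, adjusted p = 0.0153), Wnt10a (1.72 ± 0.39, adjusted p = 0.0178) and Wnt10b (1.90 ± 0.51, adjusted p = 0.0357). Sfrp1 (1.93 ± 0.16, adjusted p = 2.69e-04) and Nkd1 (1.51 ± 0.17, adjusted p = 5.64e-04) were higher as well. Wnt5b (-1.42 ± 0.23, adjusted p = 0.00361), Sfrp5 (-2.25 ± 0.44, adjusted p = 0.0089), Dkk3 (-1.09 ± 0.20, adjusted p = 0.00679) and Sp5 (-0.94 ± 0.22, adjusted p = 0.0217) were lower in Tet3-/- cells. Sp5 had 885, 845 and 968 in Tet3+/+ cells, 855, 1625 and 1177 in Tet3m/m cells and 664 and 569 in Tet3-/- cells, so the 2 Tet3-/- samples were the lowest of the 8. Wnt9a had 2405, 1576 and 1667 in Tet3+/+ cells, 1843, 1367 and 809.5 in Tet3m/m cells and 2915 and 3516 in Tet3-/- cells and Wnt5a 457, 383 and 379.5 in Tet3+/+ cells, 373, 274 and 214 in Tet3m/m cells and 523 and 605 in Tet3-/- cells, with no overlap between the mutants. Without the second Tet3-/- sample 8 genes were called, the calls lost being Wnt3 (1.28), Wnt4 (1.09), Wnt5a (0.90), Wnt9a (1.20), Wnt10a (1.74), Wnt10b (1.49) and Sp5 (-0.83), and without the first those of Wnt3 (1.66), Wnt5a (1.11), Wnt10a (1.70), Wnt10b (2.32), Sfrp5 (-1.82) and Sp5 (-1.05) were lost. Wnt3 (1.26), Wnt5a (0.99), Wnt10a (1.65), Wnt10b (2.04) and Sp5 (-0.71) were also not called without the second Tet3m/m sample, nor Wnt10b (1.37) without the third. The 2 mutants did not overlap for 25 of the 44 genes (56.8%), beside 41% of all genes. The ligand median was 1.01, against -0.01 for all genes. Beside these differences, 5 of 10 endoderm markers were lower and the collagens Col1a1 (2.06) and Col3a1 (2.13) higher in Tet3-/- than in Tet3m/m cells, and the fibroblast sum was 43744 to 48412 against 12774 to 22771.

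The empty-vector arms of the Dnmt1 experiment compare the same genotype labels in other samples, which were transfected and treated with blasticidin. As given above, Tet3 in the samples labelled Tet3-/- was closer to Tet3+/+ cells here than on day 3, and the cause was not tested. In these arms 13 of the 17 ligands were lower in Tet3m/m cells, and 13 were higher and 1 lower in Tet3-/- cells. Of the 44 genes 25 were called in Tet3m/m cells (56.8%, beside 21.2% of all 18055 genes), 23 of them lower (52.3%, beside 10.9%) and 2 higher (4.55%, beside 10.3%). The Tet3-/- cells gave 32 calls (72.7%, beside 24.9%), 24 of them higher (54.5%, beside 11%) and 8 lower (18.2%, beside 13.9%). Ligand medians were -2.03 and 1.23, and target medians -0.53 and 0.92, against all-gene medians of 0.0068 and 0.0034. Both comparisons share the Tet3+/+ samples. The 2 empty-vector Tet3+/+ samples share 1 column name, so first and second tell them apart by column order only. These differences go with the marker shifts given above: all 10 endoderm and all 6 pluripotency markers were higher in Tet3m/m cells, where 5 of 8 fibroblast markers were lower and 2 higher. Among Tet3-/- cells 7 endoderm markers were lower and 1 higher, 5 pluripotency markers were lower, and 3 fibroblast markers were higher and 2 lower. The mesoderm sum was 1678 and 1743 in Tet3+/+, 2012 and 2179 in Tet3m/m and 916 and 1065 in Tet3-/- cells, in the reverse of the order most ligands had. Of its 7 genes tested 3 were higher and 1 lower in Tet3m/m cells, and 1 was higher and 2 lower in Tet3-/- cells. Neuroectoderm markers went both ways, with 2 higher and 4 lower in Tet3m/m and 3 higher and 3 lower in Tet3-/- cells.

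Wnt6 moved most among the abundant ligands. It had 1809.8 and 1884 in Tet3+/+ cells, 62.1 and 102 in Tet3m/m cells and 7067 and 7313 in Tet3-/- cells (-4.52 ± 0.14, adjusted p = 1.06e-16, for Tet3m/m, and 1.96 ± 0.14, adjusted p = 1.34e-10, for Tet3-/-), so that the 3 genotypes were fully apart. Wnt7a, a ligand of the nervous system and limb, had 375 and 392 in Tet3+/+ cells, 42.04 and 54.7 in Tet3m/m cells and 879 and 876 in Tet3-/- cells (-2.97 ± 0.15, adjusted p = 4.35e-13, for Tet3m/m, and 1.19 ± 0.15, adjusted p = 7.73e-07, for Tet3-/-). Wnt7b had 1036 and 1167 in Tet3+/+ cells, 199 and 294 in Tet3m/m cells and 1842 and 1872 in Tet3-/- cells (-2.18 ± 0.13, adjusted p = 1.40e-11, for Tet3m/m, and 0.76 ± 0.13, adjusted p = 6.50e-05, for Tet3-/-). These 3 genes had the same order of genotypes, with Tet3m/m lowest and Tet3-/- highest. Wnt4 had 413 and 434 in Tet3+/+ cells, 109.7 and 129 in Tet3m/m cells and 1134 and 1233 in Tet3-/- cells (-1.82 ± 0.12, adjusted p = 7.02e-11, for Tet3m/m, and 1.48 ± 0.12, adjusted p = 2.17e-09, for Tet3-/-). Wnt2b had 202 and 242 in Tet3+/+ cells, 44.8 and 42.98 in Tet3m/m cells and 1146 and 1021 in Tet3-/- cells (-2.31 ± 0.16, adjusted p = 7.34e-11, for Tet3m/m, and 2.29 ± 0.16, adjusted p = 1.10e-10, for Tet3-/-). Wnt9a had 845 and 808 in Tet3+/+ cells, 377 and 363 in Tet3m/m cells and 1914 and 1967 in Tet3-/- cells (-1.16 ± 0.10, adjusted p = 5.08e-09, for Tet3m/m, and 1.23 ± 0.10, adjusted p = 2.12e-09, for Tet3-/-). Again no 2 genotypes overlapped for any of them. Wnt11 had 667 and 656 in Tet3+/+ cells, 281 and 271 in Tet3m/m cells and 1396 and 1098 in Tet3-/- cells (-1.26 ± 0.12, adjusted p = 1.63e-08, for Tet3m/m, and 0.90 ± 0.12, adjusted p = 1.94e-06, for Tet3-/-), and Wnt5a, the main noncanonical ligand, had 256 and 167 in Tet3+/+ cells, 74.9 and 102 in Tet3m/m cells and 554 and 545 in Tet3-/- cells (-1.23 ± 0.19, adjusted p = 1.43e-05, for Tet3m/m, and 1.41 ± 0.19, adjusted p = 2.46e-06, for Tet3-/-).

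Most of the less abundant ligands had the same order. Wnt10b had 97.8 and 85.8 in Tet3+/+ cells, 25.6 and 18.2 in Tet3m/m cells and 805 and 675 in Tet3-/- cells (-2.03 ± 0.22, adjusted p = 1.32e-07, for Tet3m/m, and 3.00 ± 0.22, adjusted p = 3.95e-10, for Tet3-/-). Wnt10a had 52.4 and 44.1 in Tet3+/+ cells, 7.31 and 2.60 in Tet3m/m cells and 180.3 and 251 in Tet3-/- cells (-3.16 ± 0.62, adjusted p = 2.26e-04, for Tet3m/m, and 2.12 ± 0.62, adjusted p = 0.00641, for Tet3-/-), where the Tet3m/m values rest on 8 and 2 reads. Wnt1 had 101 and 59.1 in Tet3+/+ cells, 25.6 and 11.7 in Tet3m/m cells and 175 and 171 in Tet3-/- cells (-2.09 ± 0.32, adjusted p = 1.21e-05, for Tet3m/m, and 1.15 ± 0.32, adjusted p = 0.00429, for Tet3-/-). Wnt2 had 31.6 and 32.5 in Tet3+/+ cells, 9.14 and 2.60 in Tet3m/m cells and 129.9 and 97.3 in Tet3-/- cells (-2.45 ± 0.49, adjusted p = 3.16e-04, for Tet3m/m, and 1.78 ± 0.49, adjusted p = 0.00455, for Tet3-/-), with 10 and 2 reads in Tet3m/m cells. Low counts make the size of these falls uncertain, although the groups did not overlap. Wnt3a, the canonical ligand of the tail bud, had 23.7 and 34.8 in Tet3+/+ cells, 5.48 and 2.60 in Tet3m/m cells and 51.97 and 69.8 in Tet3-/- cells, and it fell in Tet3m/m cells (-2.62 ± 0.49, adjusted p = 1.30e-04, on 6 and 2 reads) but was not called in Tet3-/- cells (1.04 ± 0.49, adjusted p = 0.0778). Wnt3 had 134 and 109 in Tet3+/+ cells, 84.1 and 89.9 in Tet3m/m cells and 373 and 359 in Tet3-/- cells, with a rise in Tet3-/- cells (1.59 ± 0.18, adjusted p = 2.01e-07) and no call in Tet3m/m cells (-0.47 ± 0.18, adjusted p = 0.0361). Wnt5b departed from the order, with 385 and 386 in Tet3+/+ cells, 311 and 302 in Tet3m/m cells and 258 and 216 in Tet3-/- cells and a fall in Tet3-/- cells (-0.71 ± 0.13, adjusted p = 1.08e-04). Wnt8a and Wnt9b were not called in either comparison. Wnt8a had 80.02 and 48.7 in Tet3+/+ cells, 48.4 and 63.8 in Tet3m/m cells and 45.5 and 40.2 in Tet3-/- cells. Of the calls in Tet3-/- cells, those of Wnt10a (1.89) and Wnt5b (-0.58) were lost without the second Tet3-/- sample, that of Wnt2 (1.57) without the first, and that of Wnt1 (0.77) without the second Tet3+/+ sample.

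**Figure D3:**
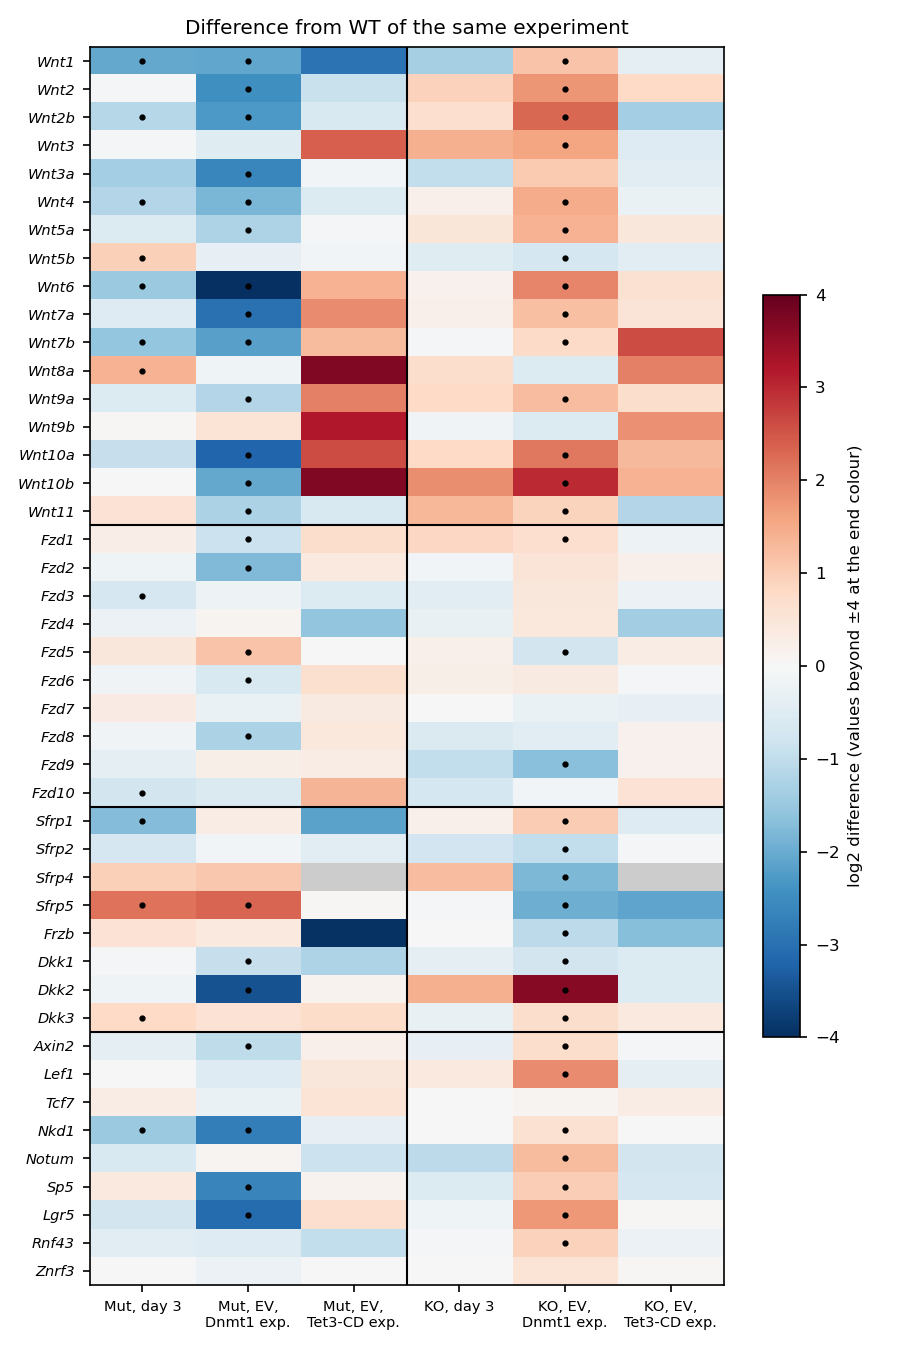
Log2 difference from the WT samples of the same experiment (colour, -4 to 4) for the 44 genes (rows, lines between ligands, receptors, antagonists and targets) in Mut (left) and KO cells (right) on day 3 and in the empty-vector (EV) arms of the 2 transfection experiments. Dots mark genes called by limma, the Tet3-CD columns have 1 sample per group and no test, and grey marks Sfrp4, which that table does not list; Wnt6 is -1.49, -4.52 and 1.38 in the 3 Mut columns.

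Receptors did not share 1 direction. Fzd2, the most abundant, had 10426 and 10338 in Tet3+/+ cells, 2920.0 and 3213 in Tet3m/m cells and 14992 and 14676 in Tet3-/- cells, a fall in Tet3m/m cells (-1.76 ± 0.05, adjusted p = 1.24e-16) and a difference in Tet3-/- cells that missed the fold (0.51 ± 0.05, adjusted p = 6.25e-08). Fzd8 had 3067 and 3175 in Tet3+/+ cells, 1392 and 1209.9 in Tet3m/m cells and 2246 and 2393 in Tet3-/- cells and fell in Tet3m/m cells (-1.27 ± 0.08, adjusted p = 1.61e-11), as did Fzd6 with 1358 and 1318 in Tet3+/+ cells, 844 and 925 in Tet3m/m cells and 1769 and 1663 in Tet3-/- cells (-0.60 ± 0.08, adjusted p = 1.14e-06). Fzd1 had 992 and 1068 in Tet3+/+ cells, 556 and 573 in Tet3m/m cells and 1647 and 1606 in Tet3-/- cells (-0.87 ± 0.08, adjusted p = 1.00e-08, for Tet3m/m, and 0.66 ± 0.08, adjusted p = 5.47e-07, for Tet3-/-), in the order seen for the ligands. Fzd5, a receptor of the eye field and yolk sac, ran against it with 736 and 696 in Tet3+/+ cells, 1627 and 1506 in Tet3m/m cells and 376 and 489.9 in Tet3-/- cells (1.13 ± 0.11, adjusted p = 1.61e-08, for Tet3m/m, and -0.74 ± 0.11, adjusted p = 6.51e-06, for Tet3-/-). Fzd9 had 318 and 198 in Tet3+/+ cells, 272 and 318 in Tet3m/m cells and 89.3 and 68.8 in Tet3-/- cells and fell in Tet3-/- cells (-1.67 ± 0.27, adjusted p = 2.74e-05). Fzd3 had 1597 and 1688 in Tet3+/+ cells, 1389 and 1448 in Tet3m/m cells and 2225 and 2228 in Tet3-/- cells and was called only between the mutants (0.65 ± 0.09, adjusted p = 1.92e-06). Fzd10 had 1154 and 1127 in Tet3+/+ cells, 778 and 764 in Tet3m/m cells and 1095 and 1025 in Tet3-/- cells, and its fall in Tet3m/m cells, called on day 3, did not pass the fold here (-0.56 ± 0.08, adjusted p = 3.45e-06). The call of Fzd6 was lost without the first Tet3+/+ (-0.58) or first Tet3m/m sample (-0.53), and that of Fzd5 in Tet3-/- cells without the first Tet3-/- sample (-0.55).

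Antagonists split into 2 directions. Sfrp5 had 475 and 547 in Tet3+/+ cells, 2585 and 2523 in Tet3m/m cells and 155 and 111 in Tet3-/- cells (2.32 ± 0.13, adjusted p = 3.51e-12, for Tet3m/m, and -1.95 ± 0.13, adjusted p = 8.19e-11, for Tet3-/-), the reverse of the ligand order. Dkk2 had 119 and 118 in Tet3+/+ cells, 3.66 and 23.4 in Tet3m/m cells and 1511 and 1497 in Tet3-/- cells (-3.48 ± 0.43, adjusted p = 7.86e-07, for Tet3m/m, and 3.66 ± 0.43, adjusted p = 3.94e-07, for Tet3-/-), with 4 and 18 reads in Tet3m/m cells. Dkk1, an antagonist that binds the coreceptors Lrp5 and Lrp6, was lower in both mutants, with 982 and 921 in Tet3+/+ cells, 537 and 471 in Tet3m/m cells and 529 and 617 in Tet3-/- cells (-0.92 ± 0.12, adjusted p = 9.83e-07, for Tet3m/m, and -0.73 ± 0.12, adjusted p = 1.69e-05, for Tet3-/-). Sfrp1 had 4210.2 and 3979.7 in Tet3+/+ cells, 5252 and 4914 in Tet3m/m cells and 8337 and 8213 in Tet3-/- cells. Its difference in Tet3m/m cells was 0.31 ± 0.06, adjusted p = 3.46e-04, upward and below the fold, whereas it had fallen on day 3, and in Tet3-/- cells it rose (1.02 ± 0.06, adjusted p = 2.62e-11). Sfrp2 had 1290.1 and 1335 in Tet3+/+ cells, 1151 and 1283 in Tet3m/m cells and 697 and 628 in Tet3-/- cells and Frzb 213 and 213 in Tet3+/+ cells, 289 and 271 in Tet3m/m cells and 76.3 and 135 in Tet3-/- cells, and both fell in Tet3-/- cells (-0.99 ± 0.12, adjusted p = 7.88e-07 and -1.06 ± 0.20, adjusted p = 1.22e-04). Dkk3 had 835 and 928 in Tet3+/+ cells, 1387 and 1232 in Tet3m/m cells and 1453 and 1399.7 in Tet3-/- cells and rose there (0.70 ± 0.08, adjusted p = 5.49e-07). Sfrp4 had 17.8 and 13.9 in Tet3+/+ cells, 34.7 and 33.9 in Tet3m/m cells and 6.50 and 2.12 in Tet3-/- cells, a fall in Tet3-/- cells (-1.79 ± 0.55, adjusted p = 0.00879) that rests on 8 and 2 reads and was lost without the first Tet3+/+ (-1.63) or the second Tet3-/- sample (-1.16).

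Most feedback targets had the order of the ligands. Axin2 had 2143 and 1934 in Tet3+/+ cells, 948 and 1057 in Tet3m/m cells and 3291 and 3381 in Tet3-/- cells (-1.02 ± 0.08, adjusted p = 3.03e-10, for Tet3m/m, and 0.71 ± 0.08, adjusted p = 8.68e-08, for Tet3-/-). Nkd1 had 1683 and 1545 in Tet3+/+ cells, 268 and 206 in Tet3m/m cells and 2317 and 2568 in Tet3-/- cells (-2.77 ± 0.12, adjusted p = 3.51e-14, for Tet3m/m, and 0.60 ± 0.12, adjusted p = 2.41e-04, for Tet3-/-). Sp5, whose promoter window held 2 motifs, had 656 and 625 in Tet3+/+ cells, 96.9 and 107 in Tet3m/m cells and 1244 and 1312 in Tet3-/- cells (-2.64 ± 0.13, adjusted p = 3.62e-13, for Tet3m/m, and 1.00 ± 0.13, adjusted p = 1.54e-06, for Tet3-/-). Lgr5, an R-spondin receptor of stem cells, had 239 and 197 in Tet3+/+ cells, 18.3 and 33.9 in Tet3m/m cells and 743 and 698 in Tet3-/- cells (-3.07 ± 0.21, adjusted p = 6.65e-11, for Tet3m/m, and 1.73 ± 0.21, adjusted p = 4.78e-07, for Tet3-/-). In these 4 genes the genotypes did not overlap, with Tet3m/m lowest and Tet3-/- highest. The transcription factor Lef1 had 203 and 197 in Tet3+/+ cells, 133 and 145 in Tet3m/m cells and 728 and 751 in Tet3-/- cells and rose in Tet3-/- cells (1.88 ± 0.13, adjusted p = 9.26e-11). Notum, a secreted enzyme that inactivates Wnt proteins, had 459 and 489 in Tet3+/+ cells, 496 and 534 in Tet3m/m cells and 1119.7 and 1163 in Tet3-/- cells and rose there too (1.27 ± 0.14, adjusted p = 1.06e-07), as did the ubiquitin ligase Rnf43 with 179.8 and 189 in Tet3+/+ cells, 129.8 and 130.2 in Tet3m/m cells and 324 and 378 in Tet3-/- cells (0.92 ± 0.16, adjusted p = 4.42e-05). Znrf3 had 1228 and 1175 in Tet3+/+ cells, 989.8 and 1071 in Tet3m/m cells and 1762 and 1775 in Tet3-/- cells and was called only between the mutants (0.78 ± 0.07, adjusted p = 2.53e-09). Tcf7 was called in no comparison. The rise of Nkd1 in Tet3-/- cells did not pass the fold without the second Tet3+/+ (0.53) or the second Tet3-/- sample (0.52).

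Between the 2 mutants 35 of the 44 genes were called in the empty-vector arms (79.5%, beside 39.6% of all genes), 29 of them higher (beside 18.9%) and 6 lower (beside 20.6%) in Tet3-/- cells. The ligand median was 3.24 and the target median 1.74, against -0.01 for all genes. Dkk2 (7.14 ± 0.43), Wnt6 (6.48 ± 0.14), Wnt10a (5.29 ± 0.62) and Wnt10b (5.03 ± 0.22) had the largest rises on the log2 scale, and Sfrp5 (-4.27 ± 0.13) the largest fall. Chromosome 8 genes as a whole had median log2 ratios of -0.44 in both empty-vector Tet3m/m samples and -0.37 and -0.35 in the Tet3-/- samples against Tet3+/+. The 100 genes around Nkd1 had medians of -0.44 and -0.48 in Tet3m/m cells beside -2.59 and -2.96 for Nkd1. The genes around Sfrp1 had medians of -0.46 and -0.45 beside 0.36 and 0.26 for Sfrp1. Around Wnt2 on chromosome 6 they were -0.49 and -0.52 in Tet3m/m cells.

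The Dnmt1 experiment asked whether more Dnmt1 changes expression in cells of each Tet3 genotype. In Tet3m/m cells 8 of the 44 genes were called (18.2%, beside 2.46% of all genes), and all 8 were higher with myc-Dnmt1 (beside 1.78% of all genes). Tet3-/- cells gave 4 calls (9.09%, beside 3.53%), 2 of them higher (beside 2.51%) and 2 lower (beside 1.02%), and in Tet3+/+ cells 1 (2.27%, beside 1.17%). The medians of the 44 genes were 0.05 in Tet3+/+, 0.24 in Tet3m/m and -0.03 in Tet3-/- cells, and that of the targets was 0.57 in Tet3m/m cells. In Tet3m/m cells 4 of the 8 fibroblast markers were higher with myc-Dnmt1, beside 1.78% of all genes. The sum of that list was lower, at 10702 and 11035 with myc-Dnmt1 against 11483 and 11927 without. In that comparison 2 neuroectoderm markers and the mesoderm marker Hand1 were higher, and no endoderm or pluripotency marker was called.

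Of the targets in Tet3m/m cells Sp5 went from 96.9 and 107 with empty vector to 295 and 237 with myc-Dnmt1 (1.37 ± 0.13, adjusted p = 3.05e-07), still below the 656 and 625 of empty-vector Tet3+/+ cells. Lgr5 went from 18.3 and 33.9 to 94.8 and 107 (1.97 ± 0.21, adjusted p = 1.26e-06), Lef1 from 133 and 145 to 302 and 251 (0.99 ± 0.13, adjusted p = 1.86e-05) and Notum from 496 and 534 to 959 and 784 (0.75 ± 0.14, adjusted p = 9.04e-04). With myc-Dnmt1 Lef1 was above its empty-vector Tet3+/+ values and Lgr5 remained below them, while Notum had been above them already without myc-Dnmt1. Axin2 had 948 and 1057 without and 1072 and 969 with myc-Dnmt1 and was not called (0.03 ± 0.08, adjusted p = 0.887). Of the ligands, Wnt1 went from 25.6 and 11.7 to 50.1 and 70.2 (1.71 ± 0.32, adjusted p = 0.00109), Wnt3a from 5.48 and 2.60 to 10.7 and 25.99 (1.88 ± 0.49, adjusted p = 0.0156), Wnt4 from 109.7 and 129 to 217 and 192 (0.78 ± 0.12, adjusted p = 2.27e-04) and Wnt11 from 281 and 271 to 539.9 and 551 (0.98 ± 0.12, adjusted p = 9.76e-06), all upward. Wnt6, the ligand that had fallen most, was 109 and 104 with myc-Dnmt1 against 62.1 and 102 without, which was not called (0.42 ± 0.14, adjusted p = 0.0557). Wnt10a had 7.15 and 0 with myc-Dnmt1 (8 and 0 reads), too few to show a difference. The call of Wnt3a was lost without the second empty-vector (1.46) or the second myc-Dnmt1 sample (1.28).

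**Figure D4:**
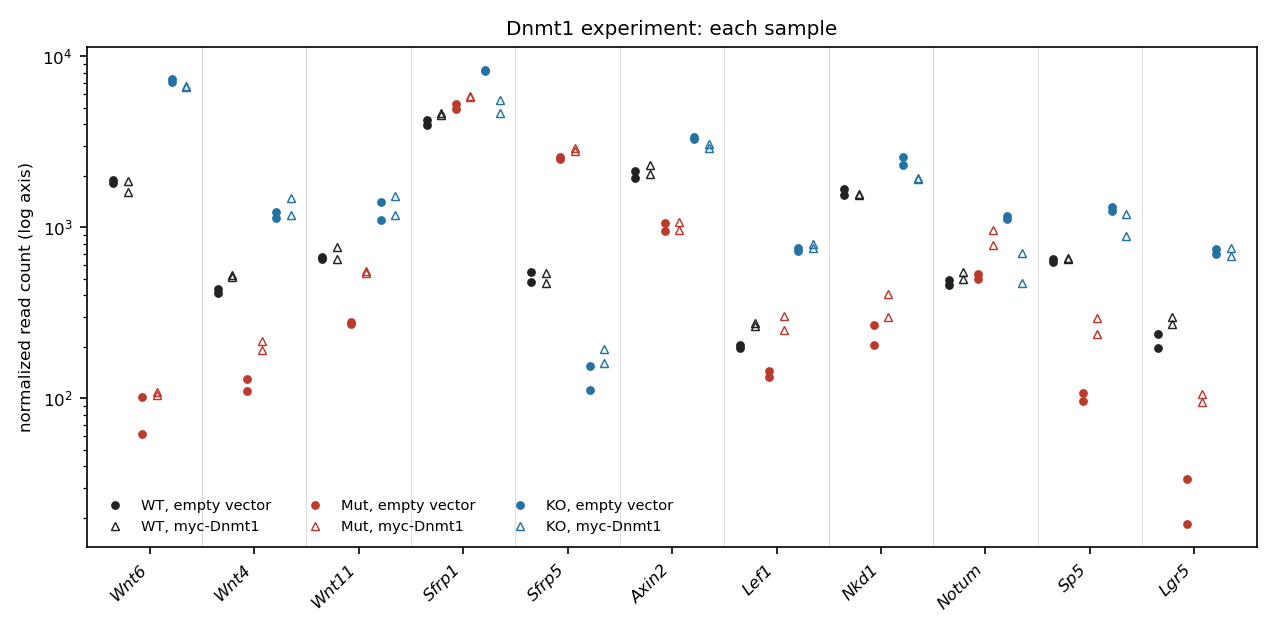
Normalized read counts (log y axis) of 11 genes (x axis) in each sample of the Dnmt1 experiment (filled circles empty vector, open triangles myc-Dnmt1; black WT, red Mut, blue KO; 2 samples per group). Mut samples rise with myc-Dnmt1 for Wnt4, Wnt11, Lef1, Notum, Sp5 and Lgr5, and KO samples fall for Sfrp1 and Notum.

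In Tet3-/- cells Notum fell from 1119.7 and 1163 to 711 and 475 (-0.97 ± 0.14, adjusted p = 5.92e-05) and Sfrp1 from 8337 and 8213 to 5559 and 4636 (-0.70 ± 0.06, adjusted p = 3.35e-07). Wnt3 rose from 373 and 359 to 616 and 882 (1.01 ± 0.18, adjusted p = 6.22e-04) and Wnt10b from 805 and 675 to 1451 and 1854 (1.15 ± 0.22, adjusted p = 0.00135). Beside these, 4 of 6 pluripotency markers were higher and 2 of 8 fibroblast markers lower with myc-Dnmt1, and the mesoderm marker Eomes was higher. The fall of Sfrp1 did not pass the fold without the second myc-Dnmt1 sample (-0.57). In Tet3+/+ cells only Wnt1 was called, from 101 and 59.1 to 195 and 168 (1.22 ± 0.32, adjusted p = 0.0266), and this call was lost without the second empty-vector sample (0.84) or without either myc-Dnmt1 sample (1.11 and 1.32). Notum thus rose in Tet3m/m and fell in Tet3-/- cells, and in Tet3+/+ cells it had 459 and 489 without and 545 and 499 with myc-Dnmt1 (0.14 ± 0.14, adjusted p = 0.64).

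Whether the effect of myc-Dnmt1 differs between genotypes was tested with the interaction term. Against the effect in Tet3+/+ cells, the effect in Tet3m/m cells differed for 4 of the 44 genes (9.09%, beside 0.604% of all genes), namely Sp5 (1.33 ± 0.18, adjusted p = 2.93e-04), Lgr5 (1.58 ± 0.29, adjusted p = 0.00557), Wnt11 (0.89 ± 0.17, adjusted p = 0.00676) and Wnt7a (0.88 ± 0.21, adjusted p = 0.0358). All 4 differences were upward, beside 0.521% of all genes. For Tet3-/- cells 7 genes differed (15.9%, beside 3.99%), 2 upward (beside 2.66%) and 5 downward (beside 1.33%). Wnt10b (1.24 ± 0.32, adjusted p = 0.0151) and Wnt9a (0.82 ± 0.14, adjusted p = 9.36e-04) were shifted upward, and Wnt1 (-1.76 ± 0.45, adjusted p = 0.0149), Notum (-1.11 ± 0.19, adjusted p = 7.95e-04), Sfrp1 (-0.87 ± 0.09, adjusted p = 2.19e-06), Fzd3 (-0.65 ± 0.13, adjusted p = 0.00245) and Sfrp2 (-0.60 ± 0.17, adjusted p = 0.0326) downward. For Axin2 the differences were -0.07 ± 0.11, adjusted p = 0.884 and -0.26 ± 0.11, adjusted p = 0.138, and for Wnt10a -1.15 ± 0.87, adjusted p = 0.71 and -0.16 ± 0.87, adjusted p = 0.944, which do not show that the effects were alike. The count for Tet3m/m cells was 2 without the second Tet3+/+ sample with myc-Dnmt1, where Wnt11 (0.78) and Wnt7a (0.87) were lost, and Wnt7a was not called in 7 of the 8 fits that left out 1 sample. The count for Tet3-/- cells was 4 without the second empty-vector Tet3-/-, the first myc-Dnmt1 Tet3+/+ or the second myc-Dnmt1 Tet3-/- sample. Wnt1, Wnt10b and Sfrp2 lost their calls in several such fits, and Fzd3 (-0.45) without the last of these samples.

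**Figure D5:**
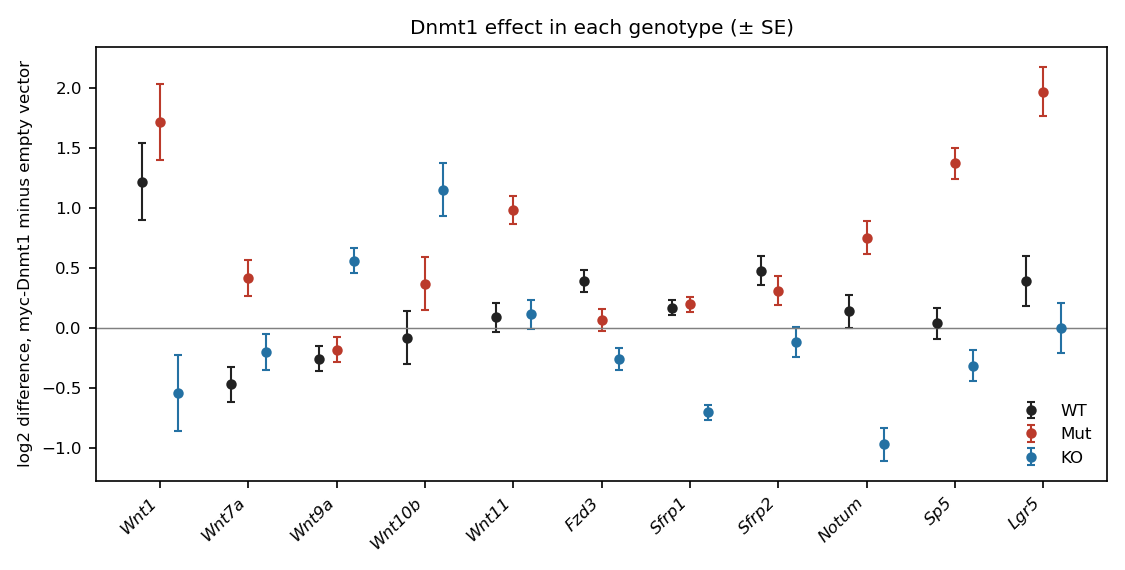
Log2 difference between myc-Dnmt1 and empty vector (y axis; points, ± SE from limma) in WT (black), Mut (red) and KO cells (blue) for the 11 genes (x axis) whose effect differed from that in WT cells in at least 1 mutant. Sp5 and Lgr5 are highest in Mut cells at 1.37 and 1.97, and Sfrp1 and Notum lowest in KO cells at -0.70 and -0.97.

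The Tet3-CD experiment has 1 sample per group, so its values are described without a test. Its empty-vector arms repeat the genotype comparison once more. In Tet3m/m cells 24 of 43 genes were past 1.5-fold (55.8%, beside 36.3% of all 17481 genes), 14 higher (beside 20.2%) and 10 lower (beside 16.1%), and in Tet3-/- cells 15 (34.9%, beside 27.1%), 8 higher (beside 15.4%) and 7 lower (beside 11.7%). Wnt6 had 2034 in Tet3+/+, 5308 in Tet3m/m and 3110.2 in Tet3-/- cells, so that here the Tet3m/m sample was the highest. The same held for Wnt10b with 54.5, 722 and 144, for Wnt10a with 36.3, 225 and 90.2 and for Wnt3 with 186, 982 and 130.3. Wnt1 was lowest in the Tet3m/m sample, with 122, 14.9 and 94.2, as in the other 2 experiments. Sfrp1 had 7599.8, 1706 and 5350.4, and Frzb 1491, 94.96 and 459. Axin2 differed little, with 2315, 2644 and 2256. The Tet3+/+ samples of this experiment had the highest endoderm sums of all 26 samples, 776040 with empty vector and 646731 with Tet3-CD, against 158408 and 207237 in the empty-vector Tet3m/m and Tet3-/- samples. The neuroectoderm sum was 8592, 18075 and 8903 in the empty-vector Tet3+/+, Tet3m/m and Tet3-/- samples, led by Nes (5410, 15200 and 5042). Against Tet3+/+, Sox2 and Sox3 were also higher in the Tet3m/m sample, while Sox1, Pax6, Zic1, Neurog2 and Hes5 were lower. The pluripotency sum was 6599, 13890 and 9560 in the same order. The part of these shifts in the result was not tested.

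With Tet3-CD 6 of 43 genes were past 1.5-fold in Tet3+/+ cells (14%, beside 13.4% of all genes), 1 in Tet3m/m cells (2.33%, beside 10.1%) and 14 in Tet3-/- cells (32.6%, beside 21.5%), of which 7 were higher (beside 9.89%) and 7 lower (beside 11.6%). The 1 gene in Tet3m/m cells was Wnt1, from 14.9 to 9.39 (16 and 10 reads). In Tet3m/m cells with Tet3-CD against empty vector, Wnt6 stood at 5303 against 5308, Sfrp1 at 1762 against 1706 and Nkd1 at 1372 against 1409. In Tet3-/- cells Wnt10b went from 144 to 580.2, Wnt3 from 130.3 to 461 and Wnt9a from 1005 to 2144. Frzb went down from 459 to 106 and Dkk1 from 421 to 208. In the same 2 samples the endoderm sum went from 207237 to 130236, although Gata6 rose. The neuroectoderm sum went from 8903 to 14800, which came mainly from Nes (5042 to 12359). Pax6 went from 431 to 472, while Sox1, Sox2, Sox3, Zic1, Neurog2 and Hes5 all went down.

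The genotype differences were set side by side over the 3 experiments, which share no sample. In Tet3m/m cells 7 genes were called in the same direction on day 3 and with empty vector in the Dnmt1 experiment, which is 53.8% of the 13 called on day 3 and 28% of the 25 called in the other. Over all genes the shares were 50.2% of 1836 and 24% of 3831, so those of the 44 genes were near the background. They were Wnt1, Wnt2b, Wnt4, Wnt6, Wnt7b and Nkd1, all lower, and Sfrp5, which was higher. None of the 44 was called in opposite directions in these 2 experiments, against 3.05% of the genes called on day 3. Between day 3 and the Tet3-CD experiment 5 genes had the same direction (Wnt1, Wnt2b, Wnt8a, Sfrp1 and Dkk3), which is 38.5% of the 13 and 20.8% of the 24 past the fold, beside 65.1% and 18.9% over all genes. Wnt6, Wnt7b and Fzd10 had opposite directions there, 3 of the 13 and of the 24, beside 6.15% and 1.78% over all genes. Of the 25 genes called in the Dnmt1 experiment, 14 were also past 1.5-fold in the Tet3-CD experiment, 5 in the same direction (Wnt1, Wnt2, Wnt2b, Wnt11 and Dkk1) and 9 in the opposite one (Wnt6, Wnt7a, Wnt7b, Wnt9a, Wnt10a, Wnt10b, Fzd1, Fzd6 and Lgr5). The same direction was thus shared by 20% of the 25, beside 36.2% of all genes called in the Dnmt1 experiment. For the opposite direction it was 9 of the 25, beside 20% of all genes called there. Over the 3 experiments 16 of 43 genes had 1 sign (37.2%, beside 44.4% of all genes). Wnt1 and Wnt2b were lower in Tet3m/m cells in all 3 experiments past the thresholds used in each, at -2.04, -2.09 and -2.95 for Wnt1 and -1.15, -2.31 and -0.62 for Wnt2b. In Tet3-/- cells 8 genes were past the thresholds in the same direction in both transfection experiments, 25% of the 32 and 53.3% of the 15, beside 20.4% and 19.4% over all genes. Over the 3 experiments 13 of 43 genes had 1 sign in Tet3-/- cells (30.2%, beside 32.8%). Among them were Wnt6 (1.96 and 0.61), Wnt10a (2.12 and 1.29), Wnt10b (3.00 and 1.39) and, downward, Sfrp5 (-1.95 and -2.12). Notum, Sp5, Wnt2b and Wnt11 went in opposite directions in the 2 transfection experiments. They were 4 of the 32 genes called in the Dnmt1 experiment, beside 20.5% of all genes called there.

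Other genes of the pathway, a list of 78, were read in the same fits. On day 3 they gave 11 calls between Tet3m/m and Tet3+/+ cells among 73 tested, beside 10.2% of all genes. Ccnd1, the cyclin that beta-catenin is known to activate, fell (-1.41 ± 0.11, adjusted p = 5.96e-05), as did Sostdc1 (-2.94 ± 0.48, adjusted p = 0.00313), Ascl2 (-1.21 ± 0.25, adjusted p = 0.0104), Daam2 (-1.23 ± 0.25, adjusted p = 0.01), the corepressor Tle5 (-1.17 ± 0.18, adjusted p = 0.00227), Amer1 (-0.65 ± 0.12, adjusted p = 0.00716), Tcf7l1 (-0.62 ± 0.12, adjusted p = 0.00852) and Igfbp4 (-0.60 ± 0.18, adjusted p = 0.0496). Porcn, the enzyme that adds the lipid to Wnt proteins, rose (1.02 ± 0.25, adjusted p = 0.0199), with Vangl1 (0.63 ± 0.10, adjusted p = 0.0023) and Ror2 (0.64 ± 0.10, adjusted p = 0.0023). Between Tet3-/- and Tet3+/+ cells 1 gene was called, beside 0.642% of all genes. It was Trabd2b, a protease that cuts Wnt proteins (0.84 ± 0.14, adjusted p = 0.0464). This call was lost in each of the 5 fits that left out 1 sample and with the replicate block. Between the 2 mutants 9 genes were called, beside 9.73% of all genes. Wls, Trabd2b, Tcf7l1, Tle5, Ascl2, Ccnd1 and Apc2 were higher and Ror2 and Rspo1 lower in Tet3-/- cells.

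In the empty-vector arms of the Dnmt1 experiment the same list of 78 gave 27 calls in Tet3m/m and 24 in Tet3-/- cells, and 35 between the 2. Beside these, 21.2%, 24.9% and 39.6% of all genes were called. Porcn was again higher in Tet3m/m cells (1.57 ± 0.09, adjusted p = 2.66e-12) and lower in Tet3-/- cells (-1.40 ± 0.09, adjusted p = 2.48e-11), while Wls, which carries Wnt proteins to the surface, was lower (-1.35 ± 0.07, adjusted p = 2.81e-13) and higher (0.78 ± 0.07, adjusted p = 2.21e-09). Ccnd1 was -2.18 ± 0.06, adjusted p = 6.18e-17 in Tet3m/m and 0.61 ± 0.06, adjusted p = 6.23e-08 in Tet3-/- cells, and Myc -1.18 ± 0.08, adjusted p = 1.37e-10 and 0.75 ± 0.08, adjusted p = 1.58e-07. Ror1, Prickle1, Prickle2, Trabd2b, Bcl9l, Tnfrsf19 and Apc2 also fell in Tet3m/m and rose in Tet3-/- cells. Ptk7, Daam2, Igfbp4, Sost, Sostdc1, Tcf7l1, Pygo1, Ascl2, Sp8 and Rspo3 fell in Tet3m/m cells, and Vangl1, Celsr1, Celsr3, Cer1, Tcf7l2 and Nkd2 rose. Rspo2, Bcl9, Kremen1, Kremen2, Celsr1, T and Dvl3 rose in Tet3-/- cells, and Rspo4, Wif1, Sp8, Nkd2, Frat1 and Frat2 fell. Between the 2 mutants Amer1 and Vangl2 were higher and Tle4 and Apcdd1 lower in Tet3-/- cells without a call in either mutant.

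With myc-Dnmt1 the list gave 2 calls in Tet3+/+, 9 in Tet3m/m and 5 in Tet3-/- cells, beside 1.17%, 2.46% and 3.53% of all genes. In Tet3m/m cells Ccnd1 (1.03 ± 0.06, adjusted p = 6.49e-10), Myc (0.86 ± 0.08, adjusted p = 4.08e-07), Ror1 (1.20 ± 0.09, adjusted p = 1.37e-08), Rspo3 (0.79 ± 0.13, adjusted p = 3.68e-04), Daam2 (1.16 ± 0.09, adjusted p = 1.06e-08), Trabd2b (0.92 ± 0.10, adjusted p = 1.31e-06), Sp8 (0.70 ± 0.14, adjusted p = 0.00229), Igfbp4 (0.61 ± 0.06, adjusted p = 1.41e-06) and Sost (2.15 ± 0.45, adjusted p = 0.00313) rose, and none of the list fell. Ascl2 and Ccnd1 rose in Tet3+/+ cells, and in Tet3-/- cells Porcn rose while Rspo2, Rspo3, Igfbp4 and Daam2 fell. The effect differed from that in Tet3+/+ cells for Ror1, Trabd2b, Igfbp4, Rspo3 and Daam2 (upward) and Ascl2 (downward) in Tet3m/m cells. For Tet3-/- cells it differed for Porcn (upward) and for Ror1, Ccnd1, Igfbp4 and Daam2 (downward).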

How the data were processed

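RNA-seq was analysed in 26 samples of 3 experiments, out of 35 samples in the series; the bisulfite, CUT&Tag and hydroxymethylation libraries were not used here. The authors trimmed reads with Trim Galore 0.6.7, aligned them with STAR 2.7.9a and counted them with featureCounts. The study names build mm39 and the labels mm10. The deposited values are a signal, gene counts divided by DESeq2 size factors. Whole reads were recovered for 100% of values within 0.01, giving per sample 36594650 to 47710548 reads for the day 3 table. The range was 31155842 to 50845950 with myc-Dnmt1 or its empty vector, and 33475041 to 37707719 with Tet3-CD or its empty vector. Between 67.3% and 75.0% of the recovered counts from 1 to 20 were even, so a fragment may count for 2 reads, and reads overstate the number of independent molecules.

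Groups were taken from the labels. Each experiment was normalized on its own and tested only within itself. limma 3.58.1 (R 4.3.3) was run on log2(value + 1) for genes with a mean of at least 10, with all groups of an experiment in 1 fit and Benjamini-Hochberg adjustment over all genes tested. Fold changes on this scale understate those of low genes. Genes with an adjusted p under 0.05 and a fold above 1.5 were called. edgeR 4.0.16 and DESeq2 1.42.0 on the recovered reads, other pseudocounts (0.1 and 5), filters, scaling, a replicate block and leaving out samples were alternatives. The tests were checked on simulated counts. Replicates within a group differed by more than sampling noise, so none was merged. The chi-square per degree of freedom was 13.8 to 87.2 on day 3 and 3.96 to 11.1 in the Dnmt1 experiment. The p-values of the 2 experiments thus rest on unlike spreads between replicates. Values in every sample were given for genes called in a day 3 or empty-vector comparison and for Wnt10a, Axin2 and Sfrp4. Other pathway genes were named where called. The 44 genes and all lists were chosen with earlier results of these data known. Promoter windows came from RefSeq (GRCm38.p6), and exon lengths and gene positions from the GENCODE mouse annotation, both by symbol.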

Additional observations from a re-analysis of the deposited data

Results flagged for a closer look

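The effect of myc-Dnmt1 against empty vector differed between genotypes for 11 values, by limma's interaction term. In Tet3m/m cells the effect exceeded that in Tet3+/+ cells by 1.33 for Sp5, 0.88 for Wnt7a, 0.89 for Wnt11 and 1.58 for Lgr5 on the log2 scale. In Tet3-/- cells the difference from the effect in Tet3+/+ cells was -0.60 for Sfrp2, -0.87 for Sfrp1, -0.65 for Fzd3, 0.82 for Wnt9a, -1.11 for Notum, 1.24 for Wnt10b and -1.76 for Wnt1. Both sets of differences share the Tet3+/+ samples.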

How the results depend on the processing

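Of 168 values of single genes with alternatives, none changed direction while called. Leaving out 1 sample ended 76 calls and made 3 over 792 refitted values, while edgeR and DESeq2 each ended 1, a pseudocount of 0.1 ended 2, and a fit on the compared groups alone ended 7. DESeq2 gave an adjusted p for 161 of the 168 values. No call changed with TMM scaling, a pseudocount of 5 or no filter. With a filter at a mean of 50, none changed among the 154 values that remained. In the comparison of day 3 Tet3-/- with Tet3+/+ cells, the 0 calls among the 44 genes became 8 with DESeq2 and 7 with the compared groups alone. For the other pathway genes the 1 call there became 2 with a pseudocount of 5, 7 with DESeq2, 5 with the compared groups alone and 0 with the replicate block. The causes were not tested. With single samples left out, counts of the 44 genes ranged from 7 to 16 for Tet3m/m on day 3, from 8 to 17 between the mutants, from 0 to 1 for myc-Dnmt1 in Tet3+/+ cells, and from 2 to 6 and 4 to 7 for the differences in its effect in Tet3m/m and Tet3-/- cells. The same ranges for other pathway genes were 0 to 0 for Tet3-/- on day 3, 1 to 3 and 3 to 7 for myc-Dnmt1 in Tet3+/+ and Tet3-/- cells, and 3 to 6 for the difference in Tet3m/m cells. Where an arm kept 1 sample, that sample was assumed to vary like the other groups. In the Tet3-CD experiment a 2-fold threshold left 1, 0 and 9 genes for Tet3-CD in Tet3+/+, Tet3m/m and Tet3-/- cells and 15 for empty-vector Tet3m/m against Tet3+/+ cells, and a pseudocount of 5 left 0 for Tet3-CD in Tet3m/m cells.

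Samples that share a replicate number share only the number. Their deviations from the group means correlated between -0.10 and 0.08 on day 3 (7 pairs) and between -0.05 and 0.03 in the Dnmt1 experiment (20 pairs). The replicate block kept 88 of 89 calls or non-calls of single genes. The exception was Wnt10b between the day 3 mutants, at 1.68 with an adjusted p of 0.0514. No block was run for comparisons with the empty-vector Tet3+/+ samples, whose columns carry no distinct number. Depth limits Wnt2, Wnt3a, Wnt9b, Wnt10a, Dkk2 and Sfrp4, which had 20 reads or fewer in every sample of at least 1 group on day 3 or in the Dnmt1 experiment, and Wnt1, Wnt3a, Wnt8a and Wnt9b in single samples of the Tet3-CD experiment.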

Other observations

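A set of 8 ligand genes forms 4 neighbouring pairs, whose log2 differences from Tet3+/+ cells are given for day 3, the empty-vector arms of the Dnmt1 experiment and those of the Tet3-CD experiment (1 sample per group, no error), in this order. Wnt6 and Wnt10a lie 6.19 kb apart on chromosome 1. Wnt6 in Tet3m/m cells was -1.49 ± 0.22, -4.52 ± 0.14 and 1.38, and Wnt10a was -0.92 ± 0.35, -3.16 ± 0.62 and 2.60. Wnt6 in Tet3-/- cells was 0.18 ± 0.25, 1.96 ± 0.14 and 0.61, and Wnt10a was 0.80 ± 0.39, 2.12 ± 0.62 and 1.29. Wnt1 and Wnt10b lie 11.7 kb apart on chromosome 15 in opposite orientation. Wnt1 in Tet3m/m cells stood at -2.04 ± 0.31, -2.09 ± 0.32 and -2.95, and Wnt10b stood at -0.03 ± 0.46, -2.03 ± 0.22 and 3.70. Wnt1 in Tet3-/- cells stood at -1.34 ± 0.35, 1.15 ± 0.32 and -0.37, and Wnt10b stood at 1.87 ± 0.51, 3.00 ± 0.22 and 1.39. Wnt3a and Wnt9a lie 16.2 kb apart on chromosome 11. Wnt3a in Tet3m/m cells had -1.37 ± 0.42, -2.62 ± 0.49 and -0.11, and Wnt9a had -0.54 ± 0.26, -1.16 ± 0.10 and 2.01. Wnt3a in Tet3-/- cells had -0.99 ± 0.47, 1.04 ± 0.49 and -0.46, and Wnt9a had 0.79 ± 0.29, 1.23 ± 0.10 and 0.71. Wnt3 and Wnt9b lie 24.3 kb apart on the same chromosome. Wnt3 in Tet3m/m cells gave -0.06 ± 0.30, -0.47 ± 0.18 and 2.40, and Wnt9b gave 0.06 ± 0.51, 0.54 ± 0.78 and 3.21. Wnt3 in Tet3-/- cells gave 1.41 ± 0.34, 1.59 ± 0.18 and -0.51, and Wnt9b gave -0.14 ± 0.57, -0.56 ± 0.78 and 1.81. Signs differed within a pair in 1 or more of the 6 comparisons for Wnt1 with Wnt10b, Wnt3a with Wnt9a and Wnt3 with Wnt9b, and in none for Wnt6 with Wnt10a. Differences within a pair were not tested, and Wnt9b rests on 8 reads in each empty-vector Tet3-/- sample of the Dnmt1 experiment. In the Tet3-CD experiment Wnt9b rests on 2 reads in the empty-vector Tet3+/+ sample and 10 in the Tet3-/- sample. The size of its differences there is therefore uncertain.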
